A study of Mus musculus with 28 samples.

Results

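The genes described here are those of the cytosolic ribosomal proteins in mouse embryonic fibroblasts (MEFs) and in MEFs on their way to induced pluripotent stem cells, with and without an inhibitor of the p38 MAP kinases. They were chosen by name (Rpl or Rps and a number, with Rplp0, Rplp1, Rplp2 and Rpsa, leaving out the Rps6k kinases and pseudogenes named as such) and by a mean value of at least 10 over all libraries. Of 50600 genes in the table, 92 have such a name and 86 also reach the mean. Of the 86, 43 are core proteins of the large subunit, 31 of the small subunit and 3 of the stalk, and 9 are paralogs or other proteins that share the naming. Rpl39l is the gene just inside the minimum, with a mean of 11.9, and Rps27rt is the one just outside, with 6.25. The remaining names left out are Rpl37rt at 3.61, Rps12l1 at 0.036, and Rpl3l, Rpl10l and Rpl6l, which are listed at 0 in every library.

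The ribosome is built in the nucleolus from ribosomal RNA and one copy of most of these proteins, so their mRNAs are made in similar amounts in nearly all cells. Many of the mRNAs begin with a stretch of pyrimidines, the 5′ terminal oligopyrimidine or TOP motif, through which mTORC1 and Larp1 control their translation and stability. In fibroblasts and pluripotent cells the genes are among the most highly expressed, and Myc is known to drive both them and the factors that assemble ribosomes.

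RNA-seq was run on 28 libraries, 2 for each of 14 groups. The cells were MEFs, labelled WT and described in the study's methods as primary cells carrying the OG2 (Oct4-GFP) reporter allele, from embryos of either sex. The MEF group had no treatment and MEF_p38i had the p38 inhibitor SB203580. The other 12 groups had been infected with retroviral Oct4, Klf4 and Sox2 (OKS), with no Myc, and were collected on days 1, 3, 5 and 7 of induction in iCD1 medium. On each day 1 group was the control (named ctr in the labels and DMSO in the study, written DMSO_d1 to DMSO_d7 here), 1 had the inhibitor during induction (p38i) and 1 had it before induction (pre-p38i). Nothing says whether the 2 libraries of a group came from separate cultures, so the p-values measure only the spread between these libraries, which may be technical. Only the cells that took up virus carry the factors, and each library is a bulk mixture, in which fewer cells of a type and less RNA per cell cannot be told apart.

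The deposited value of a gene is a whole number, and the values of a library add up to between 991287 and 992537, which is what TPM, the length-corrected transcript share RSEM writes, give when each is rounded down. The values are therefore shares of a library, corrected for gene length, and a change means a change relative to all other mRNAs. TPM keep no trace of read numbers, so depth is unknown. Fibroblast markers were present in every library (11 to 12 of 12 at 1 or more, with Lum the one at 0). Their summed value went from 12351 and 12482 in MEFs to 2086 and 2205 on day 7 of DMSO, 2511 and 2533 of p38i, and 1276 and 1333 of pre-p38i. The 8 pluripotency markers summed to 0 in MEFs and, on day 7, to 74 and 86 in DMSO, 8 and 10 in p38i and 132 and 136 in pre-p38i. The 7 epithelial markers summed to 8 and 10 in MEFs and on day 7 to 464 and 496 in DMSO, 201 and 220 in p38i and 911 and 953 in pre-p38i. The 15 macrophage markers summed to between 48 (pre-p38i day 7) and 509 (DMSO day 5), and were lower in both inhibitor conditions than in DMSO on every day. Endothelial markers summed to at most 70 and erythroid markers to at most 5. The part of this changing mixture in any value below was not tested.

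The starts of part of these genes show the pyrimidine stretch. RefSeq windows around the annotated start (GRCm38.p6) were at hand for 63 of the 86 genes. A run of 8 or more pyrimidines (C or T, on the gene's own strand) that touches the 10 bases on either side of the start was found at 29 of the 63, or 46.0%, against 16.1% of 27025 genes with a window. Among the 83 ribosome biogenesis genes with a window 9.64% have one. The 30 bases around the start of 6 genes are shown, from 15 before it, with the run in capitals. All but Rps2 were chosen because they hold the motif this family is known for. Rps6 is the substrate of S6 kinase, Rplp2 a stalk protein, Rpl7a and Rpl27a examples with long runs, Rpl22l1 a paralog that has one, and Rps2 a highly expressed gene with none at this start.
Rps6, chr4:86857353-86857382, minus strand: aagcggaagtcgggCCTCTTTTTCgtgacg
Rplp2, chr7:141447636-141447665, plus strand: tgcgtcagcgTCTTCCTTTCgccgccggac
Rpl7a, chr2:26910792-26910821, plus strand: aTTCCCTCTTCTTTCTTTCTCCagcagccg
Rpl27a, chr7:109519180-109519209, plus strand: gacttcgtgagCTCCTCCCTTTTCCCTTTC
Rpl22l1, chr3:28805493-28805522, plus strand: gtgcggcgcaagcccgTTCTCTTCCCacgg
Rps2, chr17:24720048-24720077, plus strand: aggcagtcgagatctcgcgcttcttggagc

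A second set of sequences bears on what can be measured. Ribosomal protein genes have left many processed copies in the genome, and reads from a gene and a copy of the same sequence cannot be told apart. Of the 86 genes, 77 have a transcript elsewhere that matches at 95% or more over at least 200 bases, 39 have one with a mean of 1 or more, and for 11 the copies hold over 50% of the joint signal. Rpl5, which carries 5S ribosomal RNA and binds Mdm2, is an example: its 891 coding bases are identical in the transcribed pseudogene Gm15500, as this stretch from the 2 loci (GRCm38) shows.
Rpl5, chr5:107901870-107901929, plus strand: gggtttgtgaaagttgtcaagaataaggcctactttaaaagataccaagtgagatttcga
Gm15500, chr7:114706101-114706160, minus strand: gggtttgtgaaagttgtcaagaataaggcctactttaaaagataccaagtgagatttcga
Rps4l is the opposite case. It is an intronless relative of Rps4x, annotated as a transcribed processed pseudogene on chromosome 6 (GRCm38, 148354656 to 148355598), and matches the Rps4x coding sequence at 79.95% over 783 bases. No other gene's transcript matches it at 95% over 200 bases. The 60 bases where the pair differs most carry 19 differences, in capitals.
Rps4x, chrX:102186413-102186472, minus strand: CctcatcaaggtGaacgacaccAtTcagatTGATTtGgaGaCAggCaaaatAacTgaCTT
Rps4l, chr6:148355165-148355224, plus strand: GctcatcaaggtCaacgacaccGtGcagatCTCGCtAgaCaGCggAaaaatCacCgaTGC

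As a group the 86 genes took between 10.9% and 14.9% of a library, with a median of 13.1%. With their near-identical copies added the range was 13.03% (DMSO day 5 replicate 2) to 17.75% (pre-p38i day 7 replicate 2). The stalk protein gene Rplp1 was the highest, with a mean value of 4755, followed by Rps2 (4324), Rpl23a (3432), Rpl41 (3286) and Rplp0 (3162). Of the 77 core genes 59 had a mean of 1000 or more. The levels were steady: the highest group mean of a core gene was a median of 1.38 times its lowest, and for 62 of the 77 this ratio was under 1.5. The large and small subunits kept step, with a ratio of their sums between 1.10 and 1.17 in all 28 libraries.

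The summed share followed a course over time that differed between conditions. It was 13.95% and 14.29% in MEFs and 14.14% and 14.22% in MEFs with the inhibitor, so those groups overlap. In DMSO it was 12.13% and 12.87% on day 1, then 12.24% and 12.59%, then 11.76% and 10.94%, and ended at 14.06% and 13.67% on day 7. With p38i it was 13.29% and 13.01%, then 13.89% and 14.04%, then 12.26% and 12.32%, and 13.21% and 13.11% on day 7. The p38i libraries lay above both DMSO libraries of their day on days 1, 3 and 5 and below both on day 7. With pre-p38i it was 13.25% and 12.78%, then 11.63% and 12.15%, then 11.95% and 12.19%, and at last 14.36% and 14.91%, which overlaps DMSO on day 1, lies below it on day 3 and above it on days 5 and 7. The share taken by mitochondrially encoded genes also moved, from 1.95% and 2.14% in MEFs up to 6.12% and 6.18% on day 3 of p38i. With these genes taken out of the total, the p38i libraries kept their places against DMSO on each day. On day 7 they were at 14.02% and 13.79% against 14.58% and 14.25%. On day 3 they were at 14.80% and 14.96%, then above both MEF libraries (14.26% and 14.57%). On day 1 pre-p38i (13.70% and 13.30%) then lay just above DMSO (12.51% and 13.29%). The part of this share in the values of single genes was not tested.

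**Figure D1:**
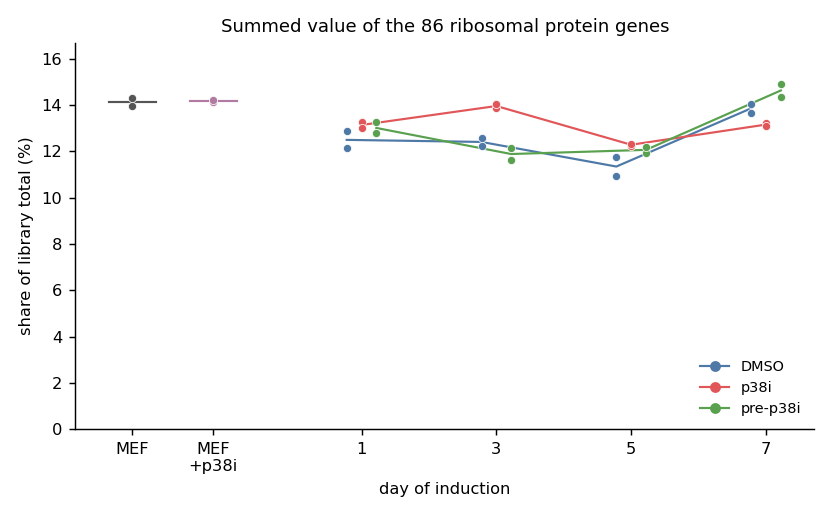
Summed value of the 86 ribosomal protein genes as a percentage of the library total (vertical axis, from 0), against day of induction, with MEFs and p38i-treated MEFs at the left. Each point is a library and the lines join the means of the 2 libraries. The p38i points lie above DMSO on days 1, 3 and 5 and below it on day 7, and the lowest library is a DMSO library of day 5 at 10.9%.

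On the first day of induction most of these genes were lower, relative to other mRNAs, than in MEFs. Between MEFs and day 1 of DMSO, 51 of the 86 fell and 2 rose, in limma's test across all 13230 features with Benjamini-Hochberg adjusted p under 0.05, where 55.5% of all features were called (18.9% lower and 36.6% higher). The median log2 fold change of the 86 was -0.18, beside 0.14 for all features tested. Rps2, at the mRNA entrance of the small subunit, went from 5645 and 5604 in MEFs to 4691 and 4780 (log2 fold change -0.25 ± 0.0399 (SE), adjusted p = 2.41e-05). Rpsa, a small subunit protein also known as the laminin receptor, went from 2520 and 2461 to 1915 and 1875 (-0.39 ± 0.0458, adjusted p = 3.83e-07). The groups do not overlap for either gene. Rplp0 (-0.24), Rps6 (-0.22), Rps4x (-0.21), Rpl3 (-0.33), Rpl22 (-0.34) and Rpl36a (-0.34) also fell, while Rplp2 (-0.12 ± 0.081, adjusted p = 0.208) and Rpl39 (-0.05 ± 0.103, adjusted p = 0.743) did not pass. The 2 genes called higher were Rps4l (1.25 ± 0.0498, adjusted p = 2.95e-14) and Rpl5 (1.08 ± 0.107, adjusted p = 3.94e-08), and for Rpl5 the sum with its near-identical copies fell. The scale matters here: with quantile normalization 11 of the 86 were called higher and 17 lower, with Rps6 at 0.05 and Rps4x at 0.04, and with scaling on the genes outside this family 2 were higher and 70 lower. Without DMSO day 1 replicate 1, 31 were lower.

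From day 1 to day 7 of DMSO the levels came back up. Of the 86 genes 42 rose and 5 fell, where 54.6% of all features were called (28.4% and 26.1%), with a median of 0.14 beside 0.03. Rpl7 went from 1781 and 1860 to 2286 and 2287 (0.33), Rpl3, which lines the peptidyl transferase centre, from 540 and 558 to 738 and 669 (0.36 ± 0.06, adjusted p = 4.73e-05), and Rps27 from 1140 and 1323 to 1782 and 1645 (0.48, adjusted p = 0.000664). In each the 2 libraries of day 7 lay above both of day 1, although the copies of Rpl3 hold 71.1% of its joint signal. Rps2 went the other way, from 4691 and 4780 on day 1 to 3922 and 3887 on day 7 (-0.28 ± 0.0399, adjusted p = 6.86e-06), after a low of 3083 and 2990 on day 5. Of the other genes that fell, Rps27l, Rpl5, Rpl27 and Rps13, all but Rps27l are among those whose copies hold over 50% of the signal. The Rpl27 call was lost without any 1 of the 4 libraries (adjusted p from 0.0557 to 0.172) and that of Rpl5 without DMSO day 1 replicate 1 (0.114) or DMSO day 7 replicate 2 (0.241). Quantile normalization gave 36 higher and 3 lower, and the counts were 26 and 2 without DMSO day 1 replicate 1.

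**Figure D2:**
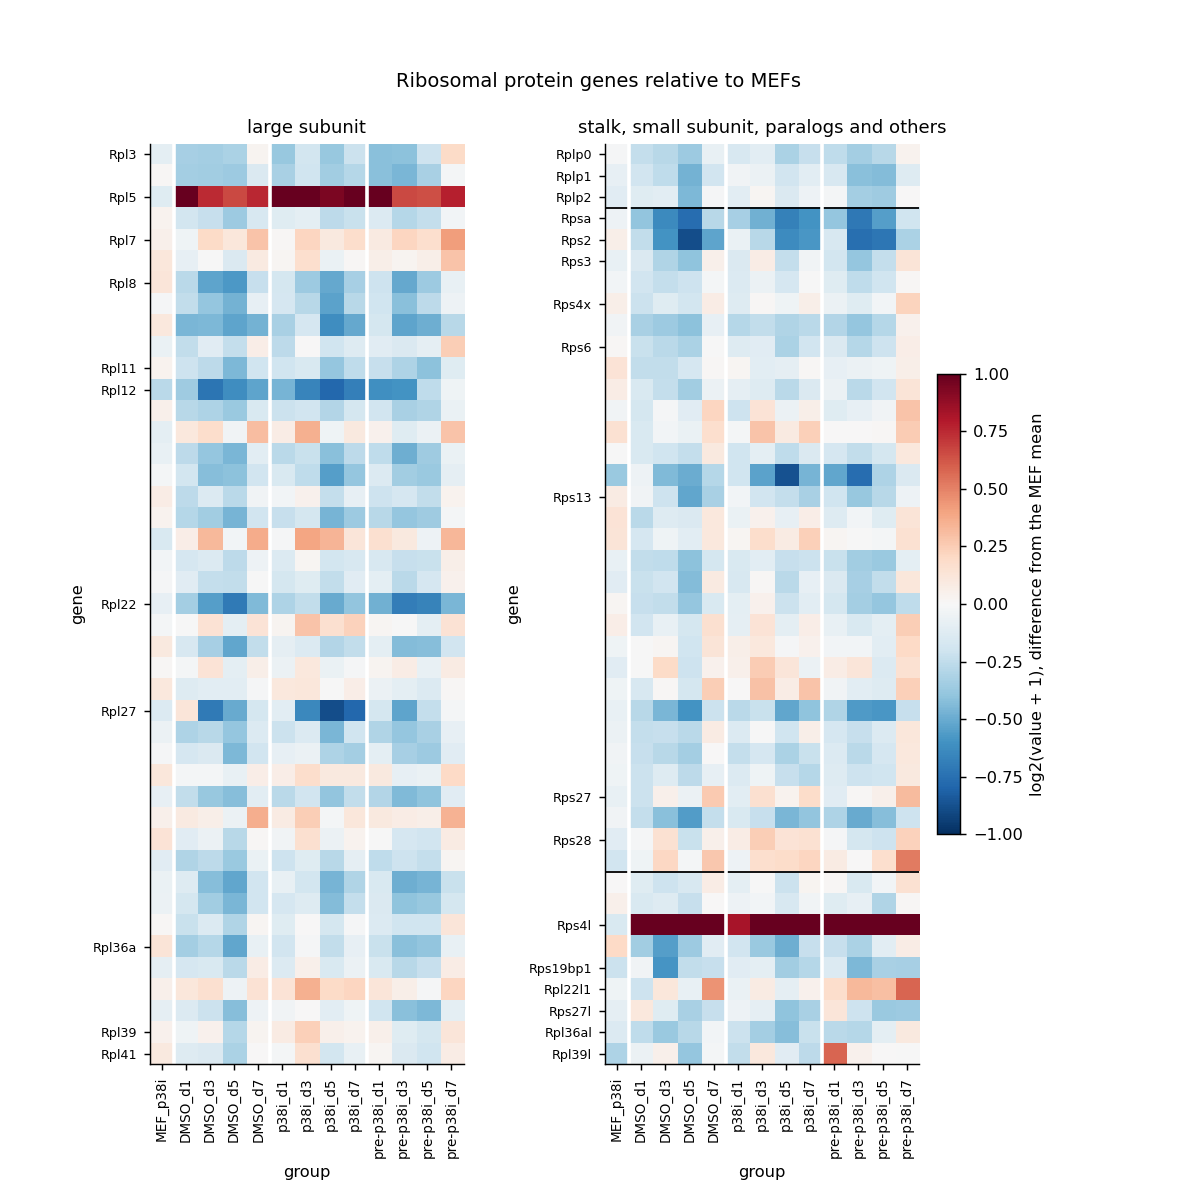
Difference of each of the 86 genes from its MEF mean on the log2(value + 1) scale (colour, from -1 in blue to 1 in red, values beyond this range take the end colour) in the other 13 groups (columns), with the genes in rows by subunit, some of those described in the text named at the left, and black lines between subunits, stalk and paralogs. Of the 86, 78, 68, 83 and 47 lie below their MEF level on days 1, 3, 5 and 7 of DMSO, and Rps4l and Rpl5 are the rows that are red throughout induction.

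In MEFs, before any induction, the inhibitor moved few of these genes. Of the 86, 3 were higher and 1 lower with SB203580, where 17.9% of all features were called (9.73% and 8.15%), and their median was -0.03 beside 0.00. Rpl7l1, a relative of Rpl7 with a role in ribosome assembly, was 107 and 111 without and 123 and 127 with the inhibitor (0.20 ± 0.0505, adjusted p = 0.01). The others were Rpl8 (0.12), Rpl7a (0.12) and Rps4l (-0.15, adjusted p = 0.0438). All 4 differences were small, and each call was lost when 1 library was left out: the counts were 1 without MEF replicate 1, 1 without MEF replicate 2, 2 without MEF_p38i replicate 1 and 0 without MEF_p38i replicate 2.

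With the inhibitor present during induction, the genes called were mostly higher than in DMSO on days 1, 3 and 5, while those called on day 7 were lower. On day 1, 5 rose above DMSO and 1 fell below it, where 16.1% of all features were called (3.47% higher and 12.6% lower). The share of the 86 called that day, 6.98%, was under this background, and the share higher, 5.81%, was near it. On day 3, 41 rose and 1 fell, with 21.4% of all features called (5.22% and 16.2%). Day 5 had 22 that rose and 2 that fell, with 26.6% called (7.87% and 18.7%). By day 7, limma called 0 higher and 25 lower, with 34.1% of all features called (16.5% and 17.6%), and 2 higher at an unadjusted p under 0.05. The medians of the 86 were 0.06, 0.16, 0.08 and -0.08, beside -0.08, -0.08, -0.08 and 0.00 for all features, so on days 1 to 5 the family moved up while the middle of all genes moved down. Among all calls the share that was higher was 21.6% on day 1, 24.4% on day 3 and 29.6% on day 5, and 41.5%, 49.7% and 52.5% with quantile normalization. Fitting only the groups compared called 1, 10, 1 and 12 of the 86 on days 1, 3, 5 and 7, with 0, 9, 0 and 0 of them higher.

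Rps2 was among the genes called higher on days 1, 3 and 5. On day 3 it was 3796 and 3647 in DMSO and 4681 and 4581 with p38i (0.32 ± 0.0399, adjusted p = 8.8e-06), on day 1 the difference was 0.18 (adjusted p = 0.00342) and on day 5 0.26 (adjusted p = 6.7e-05), and on day 7 the values were 3922 and 3887 against 3725 and 3771 (-0.06, adjusted p = 0.28). Rplp1, which with Rplp2 forms the stalk that draws in the GTPase factors of translation, went the same way: on day 3 it was 4579 and 4509 against 5242 and 5161 (0.19 ± 0.0488, adjusted p = 0.0068), and on day 5 4035 and 3766 against 4746 and 4753 (0.28 ± 0.0488, adjusted p = 0.000221). None of these libraries overlap between conditions. Rps3, which lines the mRNA entrance, was 1619 and 1706 against 2100 and 2227 on day 3 (0.38 ± 0.0756, adjusted p = 0.00109). Rplp0 (0.17), Rps6 (0.16), Rpl22 (0.30), Rpl41 (0.30), Rpl36a (0.27) and Rps4x (0.13) were higher on day 3 as well, although without DMSO day 3 replicate 1 Rps6 (adjusted p = 0.0632), Rpl22 (0.107), Rpl41 (0.0782), Rpl36a (0.108) and Rps4x (0.0549) missed the threshold, as did Rplp1 (0.0536) and Rplp0 (0.0637) without p38i day 3 replicate 1, while Rpl11, the partner of Rpl5 in Mdm2 binding, was not called on any day (0.01, 0.11, 0.07 and -0.05). Quantile normalization left Rps2 at 0.11 (adjusted p = 0.404) and Rplp1 at 0.04 on day 3. For days 1, 3, 5 and 7 in turn it gave 3, 15, 15 and 3 higher and 1, 1, 2 and 19 lower, and scaling on genes outside the family gave 27, 64, 36 and 1 higher and 1, 1, 1 and 12 lower.

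Single libraries carry part of these counts. On day 5 Rps28 was 1599 and 1261 with p38i against 1130 and 1082 in DMSO (0.36, and 0.19 with adjusted p = 0.194 without p38i replicate 1, or 0.33 with adjusted p = 0.0649 without DMSO replicate 2). The number of genes called on day 5 was 8 without DMSO day 5 replicate 2 and 14 without p38i day 5 replicate 1. On day 3 it was 20 without DMSO replicate 1, 19 without p38i replicate 1 and 22 without p38i replicate 2. On day 1 it was 2 without DMSO replicate 1, 3 without p38i replicate 1 and 2 without p38i replicate 2. On day 7 it was 9 without DMSO replicate 1, with 1 higher and 8 lower, and 9 without p38i replicate 2, all of them lower.

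On day 7 the lower genes came from all parts of the ribosome, 12 from the large subunit and 9 from the small. Rpsa was 2080 and 2019 in DMSO and 1680 and 1610 with p38i (-0.32 ± 0.0458, adjusted p = 2.38e-05). Rps6 was 3095 and 3052 against 2835 and 2587 (-0.18 ± 0.0404, adjusted p = 0.00161). Both genes were separate between conditions, as were Rplp0 (-0.16) and Rpl3 (-0.24, with 71.1% of its joint signal in copies). The Rpsa call held in each of the 12 alternatives, but Rps6 was not called without p38i replicate 2 (adjusted p = 0.0561), Rplp0 without p38i replicate 2 (0.0939) or DMSO replicate 1 (0.0545), and Rpl3 without DMSO replicate 1 (0.0805). The change of the p38i effect between day 1 and day 7 was tested directly, and 19 of the 86 were called, all of them downward, against 7.55% of all features downward and 14.1% upward. They include Rpsa (-0.38 ± 0.0648, adjusted p = 0.000323), Rps6 (-0.28 ± 0.0572, adjusted p = 0.00167), Rps2 (-0.24) and Rplp0 (-0.24). Without 1 library the number was 9 (DMSO day 1 replicate 1), 8 (DMSO day 7 replicate 1), 6 (p38i day 1 replicate 2) or 7 (p38i day 7 replicate 2).

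**Figure D3:**
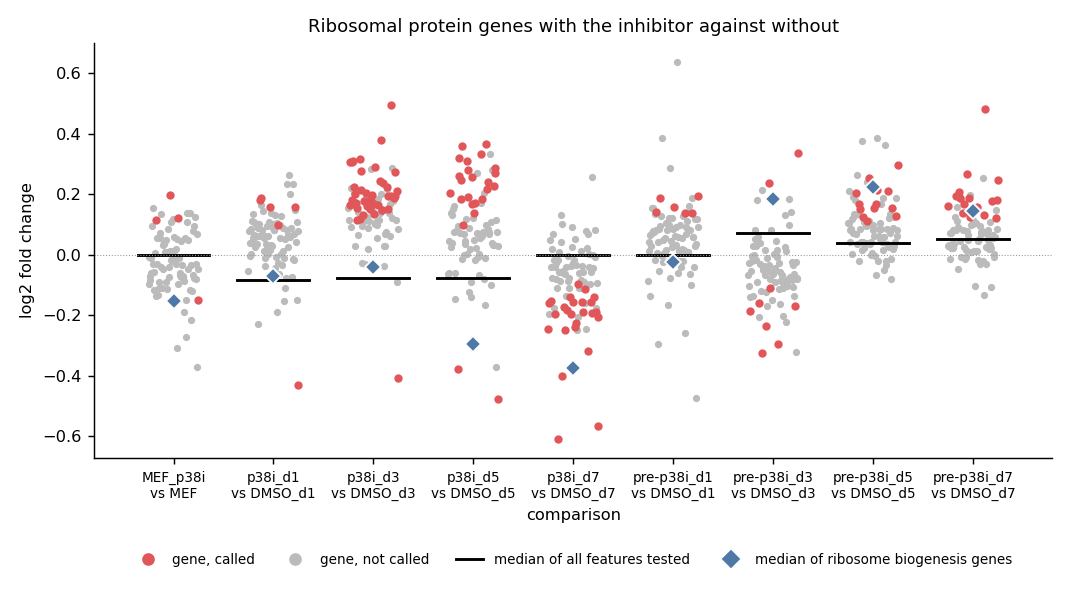
Log2 fold change of each of the 86 genes (points, red where called by limma) for the inhibitor against its control in MEFs and on each day of induction, with the median of all 13230 features tested (black bar) and the median of 95 ribosome biogenesis genes (blue diamond). The middle of the points lies above the black bar on days 1, 3 and 5 of p38i and below it on day 7, and the blue diamond lies at -0.29 on day 5 and -0.37 on day 7 of p38i.

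In the pre-p38i groups the inhibitor was given before induction. On day 1 of pre-p38i, 6 of the 86 were higher and 0 lower than in DMSO, where 11.6% of all features were called (5.4% and 6.24%). For day 3 the counts were 2 higher and 7 lower, with 20.6% of all features called (13.8% and 6.87%). For day 5 they were 13 and 0, with 25.6% called (14.3% and 11.3%), and for day 7 17 and 0, with 29.9% called (15.4% and 14.5%). At an unadjusted p under 0.05 limma gave 2, 0 and 1 lower on days 1, 5 and 7. The shares of the 86 called higher on days 5 and 7, 15.1% and 19.8%, are near the background. The DMSO libraries are the same as in the p38i comparisons, so the sets of differences are not independent. On day 7 Rps2 was 4353 and 4665 against 3922 and 3887 (0.21 ± 0.0399, adjusted p = 0.000573), and Rps4x 3327 and 3223 against 3029 and 2898 (0.14, adjusted p = 0.00559, and 0.0864 without DMSO replicate 2 or 0.0638 without pre-p38i replicate 1). On day 5 Rpl8 was 2307 and 2274 against 2008 and 1945 (0.21), and Rpsa 1710 and 1698 against 1498 and 1447 (0.21 ± 0.0458, adjusted p = 0.00194). On day 3 Rplp1 was 3854 and 4242 against 4579 and 4509 (-0.17, adjusted p = 0.0189), a call that was lost without replicate 1 of pre-p38i (-0.10, adjusted p = 0.266), DMSO replicate 1 (adjusted p = 0.103) or DMSO replicate 2 (adjusted p = 0.0549). Day 3 has no fixed direction: its median was -0.06, but 0.03 with quantile normalization, which called 4 higher and 0 lower, and scaling on genes outside the family called 2 and 13. On day 5 those scalings called 11 and 0, and 5 and 0, and on day 7 15 and 1, and 5 and 2. Fitting only the groups compared called 0, 0, 4 and 5 on the 4 days.

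Single libraries again moved the counts. On day 1 the number called was 1 without DMSO replicate 1, 1 without pre-p38i replicate 1 and 3 without pre-p38i replicate 2. On day 3 it was 4 without DMSO replicate 1 or without DMSO replicate 2, and 2 without pre-p38i replicate 1. On day 5 it was 20 without DMSO replicate 1, and on day 7 it was 10 without DMSO replicate 2. The pre-p38i effect changed between day 1 and day 7 for 3 of the 86 genes, all upward, against 7.25% of all features upward and 9.43% downward: Rpl12, at the base of the stalk (0.74), Rps13 (0.43) and Rpl4 (0.20). The copies of Rpl12 and Rps13 hold 97.5% and 73.4% of the joint signal, and with copies added the changes were 0.02 (adjusted p = 0.927) and 0.14 (adjusted p = 0.14). The change of Rpl12 was also not called without pre-p38i day 7 replicate 2 (0.57, adjusted p = 0.0797), and that of Rps13 without DMSO day 1 replicate 1, DMSO day 7 replicate 2, pre-p38i day 1 replicate 2 or pre-p38i day 7 replicate 1 (adjusted p = 0.0843, 0.159, 0.143 and 0.123). The change of Rpl4 was not called without DMSO day 1 replicate 2, pre-p38i day 1 replicate 2 or pre-p38i day 7 replicate 1, where it was 0.18 with an adjusted p of 0.0564, 0.0536 and 0.0575.

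The 2 inhibitor schedules were also set directly against each other on day 7. The share of the 86 called, 46.5%, was under that of all features, while the share lower, 45.3%, was above it. With p38i during induction, 39 of the 86 genes were lower and 1 was higher than with pre-p38i, where 54.3% of all features were called (29.5% lower and 24.8% higher), with a median of -0.16 beside -0.05. Rpsa was 1680 and 1610 against 2114 and 2221 (-0.40 ± 0.0458, adjusted p = 4.87e-07). Rpl3, with 71.1% of its joint signal in copies, was 594 and 592 against 782 and 790 (-0.41 ± 0.06, adjusted p = 1.12e-05). Rplp0 was 3123 and 2983 against 3617 and 3743 (-0.27 ± 0.0428, adjusted p = 2.61e-05). In none of the 3 do the libraries overlap. Quantile normalization gave 3 higher and 37 lower, and scaling on the genes outside the family 3 and 25.

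Of all 86 genes, Rps4l had the widest range between groups, with its highest group mean 4.01 times its lowest. It stood at 92 and 99 in MEFs and 89 and 83 in MEFs with the inhibitor. In DMSO it was 233 and 225 on day 1, then 256 and 262, then 267 and 277, and reached 290 and 290 by day 7. With p38i it was 172 and 167, then 201 and 189, then 192 and 198, and 197 and 194 on day 7. With pre-p38i it was 261 and 263, then 337 and 317, then 333 and 336, and at day 7 331 and 358. On every day the order was the same, p38i below DMSO below pre-p38i, and no libraries of different conditions overlapped within a day. Against DMSO it was lower with p38i on day 1 (-0.43 ± 0.0498, adjusted p = 5.68e-06), day 3 (-0.41, adjusted p = 5.86e-06), day 5 (-0.48, adjusted p = 7.62e-07) and day 7 (-0.57, adjusted p = 6.04e-08), all of which held in each of the 12 alternatives tried. It was higher with pre-p38i by 0.19 (adjusted p = 0.0154), 0.33 (adjusted p = 9.25e-05), 0.30 (adjusted p = 0.000172) and 0.25 (adjusted p = 0.000874), although on day 1 this missed the threshold without DMSO replicate 2 (adjusted p = 0.116) or without either pre-p38i library (adjusted p = 0.0647 and 0.0859). No other member was called on all 4 days in either condition. The p38i effect on Rps4l did not pass the test of a change between day 1 and day 7 (-0.13 ± 0.0704, adjusted p = 0.192).

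Rps4x, the X-linked parent with a mean of 2757, did not share the whole of this order. Like Rps4l it was called higher with pre-p38i on days 1, 5 and 7 (0.16, 0.15 and 0.14), but not on day 3 (0.003). It was 2399 and 2458 in DMSO, 2557 and 2583 in p38i and 2718 and 2696 in pre-p38i on day 1, and 3029 and 2898, 3013 and 2836, and 3327 and 3223 on day 7. With p38i it was called higher on days 3 and 5 (0.13 and 0.14), where Rps4l was lower, although on day 3 the call was lost without any 1 of the 4 libraries and on day 5 without DMSO replicate 2 or p38i replicate 2.

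The other paralogs each had a course of their own. Rpl22l1, whose parent Rpl22 is best known from lymphocytes, went from 154 and 192 on day 1 of DMSO to 300 and 246 on day 7 (0.66 ± 0.15, adjusted p = 0.00102), while Rpl22 was 695 and 752, then 681 and 669 (-0.10, adjusted p = 0.247). On day 7 Rpl22l1 was 184 and 229 with p38i (-0.40, adjusted p = 0.0454 against DMSO, a call lost without DMSO replicate 1, with adjusted p = 0.329, or p38i replicate 1, with adjusted p = 0.343) and 299 and 299 with pre-p38i. Rps27l, a p53 target, went from 810 and 886 to 676 and 663 (-0.34 ± 0.0693, adjusted p = 0.000354), against the rise of its parent Rps27. Rpl36al, the intronless relative of X-linked Rpl36a, was lower with p38i than with pre-p38i on day 7 (-0.32 ± 0.0687, adjusted p = 0.000589), where Rpl36a was at -0.01. Rpl39l, a relative of Rpl39 best known from testis, stayed between 7 and 20, the latter on day 1 of pre-p38i, and was called in none of the comparisons. Rps19bp1, a partner of Rps19 and not a ribosomal protein, lay between 36 and 62. It was called on day 3 of p38i, with 57 and 56 against 36 and 44 (0.49, adjusted p = 0.0371), and not without DMSO replicate 1 (0.35, adjusted p = 0.269) or either p38i library (adjusted p = 0.135 and 0.111). Rps3a2 and Rps3a3 match Rps3a1 at 99.5% and 98.99%, with 4 and 8 differences, so the values of the 3 are poorly separated.

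**Figure D4:**
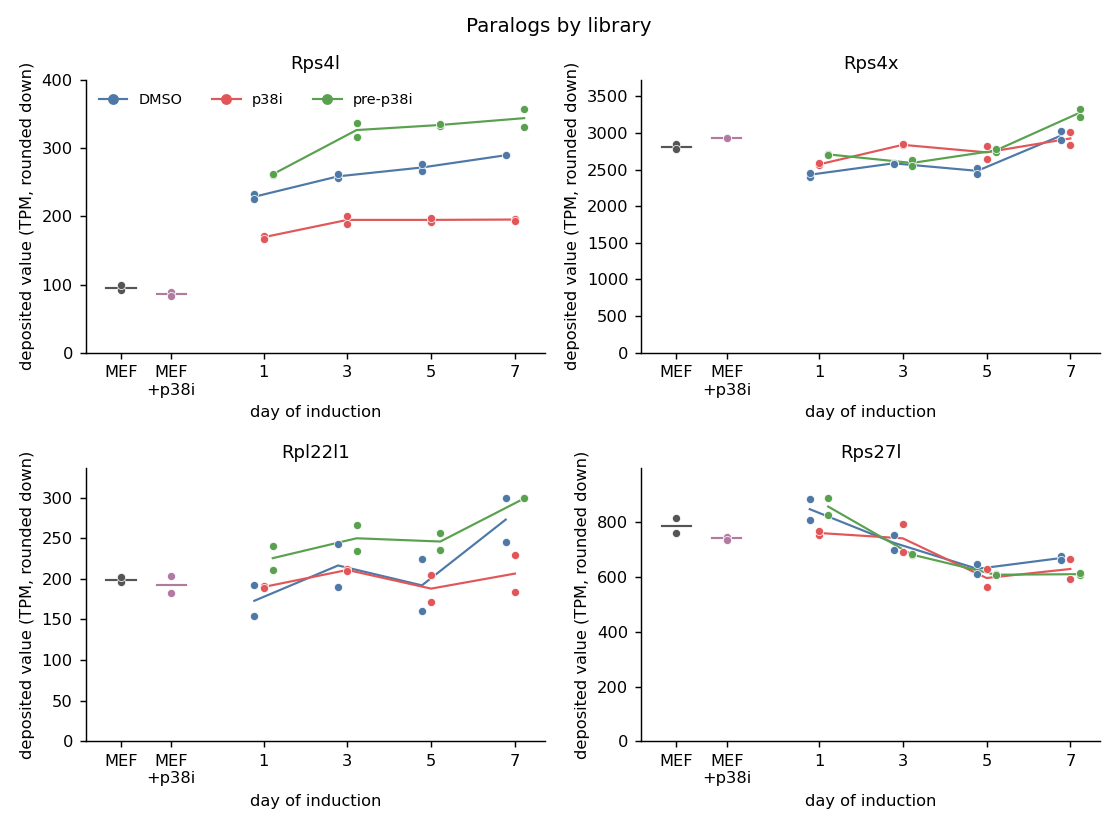
Deposited values (TPM rounded down, vertical axes from 0) of Rps4l, Rps4x, Rpl22l1 and Rps27l in each library (points) by day of induction, with lines through the means of 2 libraries. Rps4l lies at 83 to 99 in MEFs and separates into 3 levels from day 1, with p38i lowest and pre-p38i highest, while the conditions of Rps4x stay close together.

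For several genes the value listed under the gene is a small part of the signal. Rps12 had a mean of 42.4 while its identical copy Rps12-ps3 had 4197, Rpl12 61.4 against 2397 for Gm10275, Rpl5 96.5 against 1480 for Gm15500, and Rpl27 205 against 1897 for Rpl27-ps3. Rpl10, Rps13, Rpl21, Rpl3 and Rpl27a are others with over 50% in copies, as are Rps3a2 and Rps3a3, whose copies include Rps3a1. Adding the copies turned the largest rise of a core gene around. Rpl5 alone was 50 and 61 in MEFs and 123 and 113 on day 1 of DMSO, but with its copies 1873 and 1878 in MEFs and 1471 and 1540 on day 1 (-0.32, adjusted p = 8.39e-07), and from day 1 to day 7 it went from -0.32 alone to 0.13 (adjusted p = 0.00677). Rpl27 alone was 232 and 216 on day 7 of DMSO and 152 and 141 with p38i (-0.61 ± 0.116, adjusted p = 0.000431), and with its copies 2219 and 2174 against 2093 and 2003 (-0.10, adjusted p = 0.207). On day 5 Rpl27 went from -0.38 to 0.07 (adjusted p = 0.459), and Rpl12 on day 7 of pre-p38i from 0.48 to 0.08 (adjusted p = 0.394). Alone, the Rpl27 call of day 5 was lost without DMSO replicate 1 (adjusted p = 0.172) or p38i replicate 1 (0.246), and the Rpl12 call without DMSO replicate 1 (0.069) or pre-p38i replicate 2 (0.187). With copies added to each of the 86, the counts of calls were 49 higher and 1 lower on day 3 of p38i, and 0 and 20 on day 7.

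**Figure D5:**
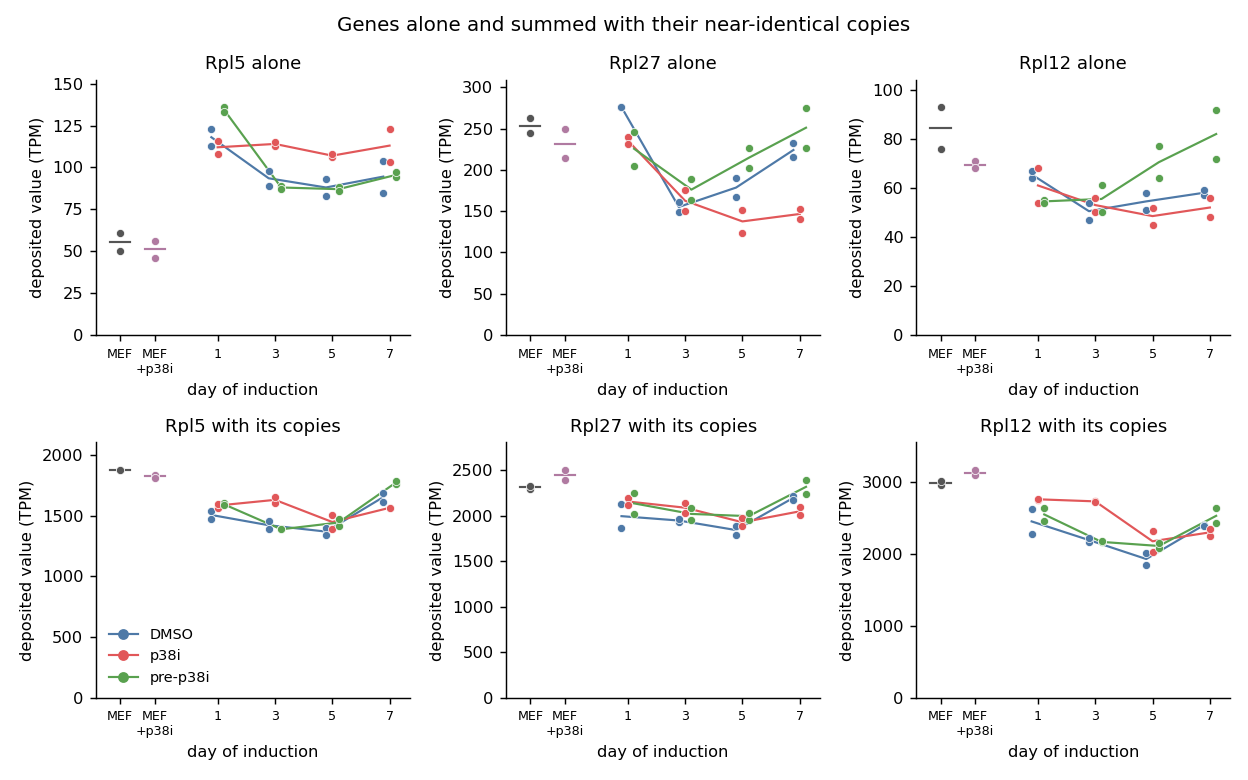
Deposited values (TPM, vertical axes from 0) of Rpl5, Rpl27 and Rpl12 alone (top) and summed with their near-identical copies (bottom) in each library by day of induction. The top panels reach 136, 276 and 93, the bottom panels between 1343 and 3172, and the rise of Rpl5 after MEFs in the top panel is a fall in the bottom one.

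Genes whose products assemble ribosomes were also measured, and with p38i most of them were lower on days 5 and 7. Of 95 ribosome biogenesis genes tested, day 3 of p38i had 1 higher and 10 lower, day 5 had 0 and 57, and day 7 had 0 and 70, with medians of -0.04, -0.29 and -0.37. Of all features 16.2%, 18.7% and 17.6% were lower on these days, so the share on day 3 is under the background. On day 5, when 22 ribosomal protein genes were higher, Dkc1, the pseudouridine synthase of ribosomal RNA, was 53 and 53 in DMSO and 32 and 30 with p38i (-0.76 ± 0.0869, adjusted p = 2.46e-06). On day 7 Dkc1 was 89 and 92 against 43 and 41 (-1.09), and Nsa2 was the 1 gene higher on day 3 (0.28). With pre-p38i 27, 37 and 28 of the 95 were higher on days 3, 5 and 7 and 0, 0 and 2 lower. Of all features 13.8%, 14.3% and 15.4% were higher on these days and 6.87%, 11.3% and 14.5% lower. In MEFs with the inhibitor 16 of the 95 were lower and 0 higher (median -0.15), where 8.15% of all features were lower and 9.73% higher. At an unadjusted p under 0.05 limma gave 1 higher and 38 lower there. Between MEFs and day 1 of DMSO 60 fell and 6 rose, where 18.9% of all features fell and 36.6% rose. From day 1 to day 7 of DMSO 42 rose and 5 fell, where 28.4% of all features rose and 26.1% fell. Between p38i and pre-p38i on day 7, 80 were lower and 0 higher (median -0.50), and Dkc1 differed by -1.46. Of all features 29.5% were lower and 24.8% higher between these groups. At an unadjusted p under 0.05 limma gave 1 and 0 biogenesis genes higher on days 5 and 7 of p38i and 0 and 1 lower on days 3 and 5 of pre-p38i.

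Of 24 genes of MYC and mTORC1 control, Myc itself went from 113 and 120 in MEFs to 35 and 35 on day 1 of DMSO (-1.71 ± 0.125, adjusted p = 4.74e-10) and on day 7 was 43 and 39 in DMSO and 19 and 18 with p38i (-1.11, adjusted p = 1.46e-06). In that list 3 were higher and 5 lower on day 7 of p38i, and 0 and 4 on day 3. Of all features 16.5% were higher and 17.6% lower on day 7 of p38i, and 5.22% and 16.2% on day 3. The counts of this list are near those shares, which also apply to the lists below. Of 23 genes of translation factors and others known as the TOP mRNA class, of which 7 of the 17 with a window (41.2%) have a run at the start, day 3 of p38i had 7 higher and 1 lower and day 7 had 2 and 13, among them the poly(A)-binding protein gene Pabpc1 (0.35 on day 3) and the histone chaperone gene Nap1l1 (-0.79 on day 7). Of the 9 genes of the p53 branch, 0 were higher and 4 lower with the inhibitor in MEFs, and 0 and 5 on day 3 of p38i. On the other days of p38i and on every day of pre-p38i 0 were higher. Lower were 3, 5 and 4 on days 1, 5 and 7 of p38i, where 12.6%, 18.7% and 17.6% of all features were lower. With pre-p38i 2, 4, 3 and 4 were lower on days 1, 3, 5 and 7, against 6.24%, 6.87%, 11.3% and 14.5% of all features. In MEFs 9.73% of all features were higher and 8.15% lower with the inhibitor. Of 78 mitochondrial ribosomal protein genes day 3 of p38i had 6 higher and 1 lower and day 7 had 0 and 19, and of 74 nuclear genes of the respiratory chain, other short and abundant mRNAs, the counts were 11 and 0, then 3 and 6. Rack1, a small subunit protein with a name of another kind, was higher on days 3 and 5 of p38i (0.18 and 0.12). It is 1 of 3 ribosomal proteins named otherwise, of which 1 was higher and 0 lower on day 3, and 1 and 1 on day 5. The core genes with a pyrimidine run at an annotated start and those without one are given side by side, with no test of their difference. On day 3 of p38i 14 of 27 and 15 of 30 were higher, and on day 5 4 of 27 and 12 of 30. By day 7, 10 of 27 and 5 of 30 were lower.

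The middle of the family over the 14 groups was followed most closely by Rpl36 among its own genes (Pearson r = 0.955 over 14 group means), and least by Rps4l (-0.41) and Rpl5 (-0.24). Among all other features the 5 most alike were the copies and pseudogenes Rps12-ps3 (0.944), Gm10163 (0.82), Rps26-ps1 (0.819) and Gm11361 (0.812), and Eif3h (0.898), a subunit of the initiation factor eIF3. The points share groups, libraries and a fixed total, so these are descriptions.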

How the data were processed

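RNA-seq of 28 libraries in 14 groups of 2 was analysed. The submitters' processing notes name bcl2fastq, Bowtie2 2.2.5, RSEM 1.3.0 and the builds mm10 and hg38, with no role given. The authors deposited 1 whole number for each gene and library, used here as a score: the totals are what TPM rounded down would give, so read depth is unknown. Of the gene names, 27 had been changed to dates. The labels and the study's methods differ on the RNA extraction and the library kit. Other cell lines of the study were not analysed here.

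Values were tested as log2(value + 1) with limma 3.58.1 (lmFit, eBayes with a trend) in R 4.3.3, over 13230 features with a mean of at least 1, all 14 groups in 1 model with 14 residual degrees of freedom, with no replicate block, and called at a Benjamini-Hochberg adjusted p under 0.05. Fold changes are on this scale. The steps were tested on simulated data. Near-identical copies were found with BLAST 2.17.0 among GENCODE M21 transcripts (95% identity over 200 bases). Genes named in the text were the stalk genes, Rpsa, Rpl5, Rpl11, Rps6, paralogs with their parents, and the members with the largest called changes in a comparison, and the companion genes named singly were chosen after their values were seen. The alternatives were another pseudocount (0.1), no filter or a minimum mean of 5, quantile normalization, scaling on other genes, summed copies, a replicate block, only the groups compared, and each library left out. The members and lists were chosen with earlier results of these data known. Replicate numbers do not mark a shared culture in the labels.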

Additional observations from a re-analysis of the deposited data

Results flagged for a closer look

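The difference between p38i and DMSO changed from day 1 to day 7 for 19 of the 86 ribosomal protein genes by limma's test of that change. The largest were Rpsa (-0.38, adjusted p = 0.000323), Rps26 (-0.28, adjusted p = 0.013) and Rps6 (-0.28, adjusted p = 0.00167). Rps26 was not called without DMSO day 7 replicate 1, p38i day 1 replicate 2 or p38i day 7 replicate 2 (adjusted p = 0.0745, 0.0539 and 0.0675). The same test for pre-p38i called 3 genes, Rpl12 (0.74, adjusted p = 0.0125), Rps13 (0.43, adjusted p = 0.0273) and Rpl4 (0.20, adjusted p = 0.0121). With near-identical copies added the changes of Rpl12 and Rps13 were 0.02 (adjusted p = 0.927) and 0.14 (adjusted p = 0.14) and were not called, and each of the 3 calls was also lost without at least 1 single library. Groups of 2 libraries are too small for a search for outlying samples.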

How the results depend on the processing

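Of 128 pairs of a named gene and a comparison, 122 kept their sign under every alternative and 31 also kept their call. The 6 that reversed were, with copies added, Rpl27 on day 5 of p38i (0.066), Rpl5 from MEFs to day 1 of DMSO (-0.32) and Rpl5 (0.13) and Rpl27 (0.14) from day 1 to day 7, and, with quantile normalization, Rps6 (0.051) and Rps4x (0.043) from MEFs to day 1.

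The numbers of members called moved most with the scale and with the libraries in the fit. Scaling on genes outside the family gave 1 in MEFs with the inhibitor, 28, 65, 37 and 13 on days 1, 3, 5 and 7 of p38i, and 15, 5 and 7 on days 3, 5 and 7 of pre-p38i. Quantile normalization gave 16 on day 3 of p38i, 4 on day 3 of pre-p38i, 28 from MEFs to day 1 of DMSO, and 6 for each change of an effect between days 1 and 7. Adding copies gave 1 for the change of the pre-p38i effect. Fitting only the groups compared gave 0 in MEFs, 1, 10, 1 and 12 on the 4 days of p38i, 0, 0, 4 and 5 on those of pre-p38i, 30 from MEFs to day 1, 24 from day 1 to day 7 and 12 for the change of the p38i effect. Where limma gave 0 there, the fit of all groups had, at an unadjusted p under 0.05, 6 higher and 1 lower in MEFs, 16 and 2 on day 1 of pre-p38i and 2 and 10 on day 3. The cause was not tested. Leaving out 1 library gave 0 to 2 in MEFs, 2 to 8, 19 to 28, 8 to 24 and 9 to 17 on the days of p38i, 1 to 6, 2 to 9, 9 to 20 and 10 to 15 on those of pre-p38i, 33 to 53 from MEFs to day 1, 28 to 46 from day 1 to day 7, 32 to 39 between p38i and pre-p38i on day 7, and 6 to 22 and 2 to 4 for the changes of the effects. Over the 9 members without a copy the summed level on day 7 differed (log2) by -0.24 between p38i and pre-p38i, -0.11 between p38i and DMSO and 0.13 between pre-p38i and DMSO. Adding the copies to the sum was chosen after seeing the data.

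Deviations of same-numbered libraries correlated at -0.0159 to 0.0513 over all features and -0.372 to 0.467 over the members. With 2 libraries in each group this cannot settle whether the replicate number pairs them. With a replicate block within time point, 2 members were called in MEFs and 2 on day 1 of p38i, and 36, 23 and 21 on days 3, 5 and 7. Depth is unknown, so what it limits could not be computed.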
